A study of Mus musculus with 23 samples.

Results

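Expression of 8 osteoclast genes, Ctsk, Acp5, Calcr, Ocstamp, Dcstamp, Atp6v0d2, Oscar, and Nfatc1, was examined in mouse bone in which type 1 diabetes (T1D) and loss of Sarm1 had been combined. The genes were picked by symbol from the 17644 genes of the deposited expression table, and their counts were found by gene ID. All 8 reached 10 counts in 5 or more mice, the requirement that left 14364 genes to test. The RNA came from the tibia and femur of 1 hind limb, from which the marrow had been spun out, of female C57BL6/N mice at 11 weeks of age, with 1 library per mouse and 23 mice in all. SARM1 is an NAD-consuming enzyme that drives the degeneration of injured axons, and its loss was combined with T1D to ask whether it alters diabetic bone disease. WT Control mice (n = 5) had received saline. WT T1D mice (n = 6) had received streptozotocin (STZ), a toxin of insulin-producing β cells, at 100 mg/kg per injection, and had been diabetic for 3 weeks. Mice of KO Control (n = 6) and KO T1D (n = 6) had been given saline and STZ in the same way and carried, by label, a global Sarm1 knockout, which affects bone cells as well as neurons. WT mice were littermates or purchased C57BL/6NTac mice, and the labels do not say which mouse was which.

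Osteoclasts are multinucleated cells of the monocyte lineage that resorb bone. Macrophage colony-stimulating factor and RANK ligand drive their precursors to switch on the transcription factor NFATc1, after which the precursors fuse, attach to bone, and pump protons and proteases into a sealed space beneath them. In bulk RNA from bone, fewer osteoclasts and less osteoclast RNA per cell cannot be told apart. Of the 8 genes, Nfatc1 encodes the transcription factor, and Oscar encodes an immunoglobulin-like receptor that gives precursors a costimulatory signal. The fusion proteins DC-STAMP and OC-STAMP are encoded by Dcstamp and Ocstamp. Atp6v0d2 encodes a subunit of the vacuolar proton pump. Acp5 encodes tartrate-resistant acid phosphatase (TRAP), Ctsk the collagen-degrading protease cathepsin K, and Calcr the receptor for calcitonin, a hormone that restrains resorption.

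On GRCm38.p6, Ctsk lies on chromosome 3 from 95499210 to 95509387, Acp5 on chromosome 9 from 22126727 to 22135746, and Oscar on chromosome 7 from 3609813 to 3616157. Calcr lies on chromosome 6 from 3685678 to 3764713 and Atp6v0d2 on chromosome 4 from 19876838 to 19922566. Ocstamp is found on chromosome 2 from 165395450 to 165400394 and Dcstamp on chromosome 15 from 39745930 to 39760938. Acp5 was the member that shared exonic bases with another annotated gene, the noncoding 6530413G14Rik on the opposite strand. The library kit kept the strand, but the sources used here do not say whether counting used it, so reads of the 2 genes may be mixed.

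RefSeq promoter windows were at hand for 4 of the 8 genes. The 250 bases before the start were searched on both strands for TGACTCA (the site of AP-1), GGAAA (the core bound by NFAT), TCATGTG (the M-box bound by MITF), and GAGGAA (PU.1), factors that act during osteoclast formation. The letters of GGAAA and GAGGAA can overlap. Shown here are the windows of the genes for a protease, a receptor, and an enzyme that varied together in these mice, 5′ to 3′ on the strand of the gene, with matches on either strand in capitals.
Ctsk, chr3:95498960-95499209, plus strand: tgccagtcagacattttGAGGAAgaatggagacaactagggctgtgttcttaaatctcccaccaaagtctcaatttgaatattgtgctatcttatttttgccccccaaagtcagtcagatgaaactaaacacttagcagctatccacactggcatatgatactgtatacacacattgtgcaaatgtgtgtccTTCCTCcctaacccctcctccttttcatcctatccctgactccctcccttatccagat
Oscar, chr7:3616158-3616407, minus strand: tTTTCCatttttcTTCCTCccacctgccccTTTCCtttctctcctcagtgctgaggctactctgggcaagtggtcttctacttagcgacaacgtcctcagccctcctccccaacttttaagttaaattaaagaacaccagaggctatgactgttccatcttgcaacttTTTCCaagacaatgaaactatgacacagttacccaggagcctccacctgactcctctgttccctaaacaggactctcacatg
Acp5, the third of its windows, chr9:22130599-22130848, minus strand: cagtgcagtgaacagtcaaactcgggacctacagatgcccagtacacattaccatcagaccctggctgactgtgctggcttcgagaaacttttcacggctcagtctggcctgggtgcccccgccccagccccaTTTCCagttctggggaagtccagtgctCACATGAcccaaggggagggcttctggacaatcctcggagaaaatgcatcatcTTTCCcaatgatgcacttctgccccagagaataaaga
Ctsk held the PU.1 letters at 233 and 58 bases before the start. Oscar held the NFAT core at 249, 220, and 82 bases and the PU.1 letters at 237 bases. This Acp5 window held the NFAT core at 117 and 37 bases and the M-box at 90 bases. Over the 7 windows of the 4 genes, 5 held the NFAT core, 2 the PU.1 letters, 1 the M-box, and 0 the AP-1 site, whereas the shares of all 32851 RefSeq windows of this length were 55.6%, 23.3%, 3.25%, and 4.46%. With 7 windows these shares describe the sequences only.

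Total counts per mouse ranged from 16938101 to 20135592. Sarm1 had 5 to 32 counts per mouse and did not separate the genotypes. It was lower in KO Control than in WT Control and higher in KO T1D than in WT T1D, with overlapping ranges in both (0.799 ± 0.503 CPM in KO Control and 1.19 ± 0.259 CPM in KO T1D, SD, n = 6 each, against 1.17 ± 0.403 CPM, n = 5, in WT Control and 0.687 ± 0.293 CPM, n = 6, in WT T1D). Genotype therefore rests on the labels throughout. Other genes did differ between the labelled genotypes at an adjusted p under 0.05 in edgeR. There were 4 in Control mice (lowest adjusted p = 4.9e-16) and 5 in T1D mice (lowest adjusted p = 2.57e-17). By qPCR the paper found less Sarm1 in knockout than in WT bone. CPM are counts scaled to a common library size with edgeR's TMM method. The IDs of 1 WT Control and 3 WT T1D mice began with A17, and those of all other mice began with A36 to A39. What the prefix stands for is not given in the sources used here. WT T1D mice A3905 and A3906 stood apart from the other 21 mice. The 9 osteoblast markers summed to 6840 CPM in A3906 and 8573 CPM in A3905, against 53380 to 118800 CPM in all other mice. The markers were not uniform. In the edgeR fit with ID series described below, Spp1 was higher with T1D in A36 to A39 WT mice (log2 fold change 1.12, adjusted p = 0.011). The other osteoblast markers had lower values there. On the scale of mean log2 (CPM + 0.5), B cell markers were lowest in A3905 and A3906 (3.63 and 3.93). Erythroid markers (11.0 and 11.2), neutrophil markers (11.1 and 11.0), and adipocyte markers (5.87 and 5.98) were at their highest in these 2 mice. Results that rest on these mice are given with and without them.

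Levels of the 8 genes were set side by side as TPM, a measure of transcript abundance scaled by gene length. Acp5 and Ctsk, the enzymes of mature osteoclasts, stood at the top with means over 23 mice of 713 ± 210 TPM (SD) and 361 ± 119 TPM. Acp5 was above Ctsk in each of the 23 mice, although their ranges overlapped. Nfatc1 at 38.3 ± 5.61 TPM and Atp6v0d2 at 36.1 ± 12.1 TPM followed and could not be ordered, since Nfatc1 was the higher of the pair in 15 of 23 mice.

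The receptor Oscar was next at 11.4 ± 4.36 TPM. Ocstamp at 6.66 ± 2.63 TPM lay above Dcstamp at 3.70 ± 1.27 TPM in all 23 mice, again with overlapping ranges. Calcr was lowest, at 0.532 ± 0.239 TPM, and its highest mouse (1.00 TPM) lay below the lowest mouse of Dcstamp (1.96 TPM). Calcr had 6 to 57 counts per mouse, with 10 or more in 21 of 23 mice, so its values carry the largest counting error. The gene that varied least was Nfatc1, with an SD of 0.187 between mice on the log2 CPM scale, and the other 7 had SDs of 0.450 to 0.556.

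**Figure D1:**
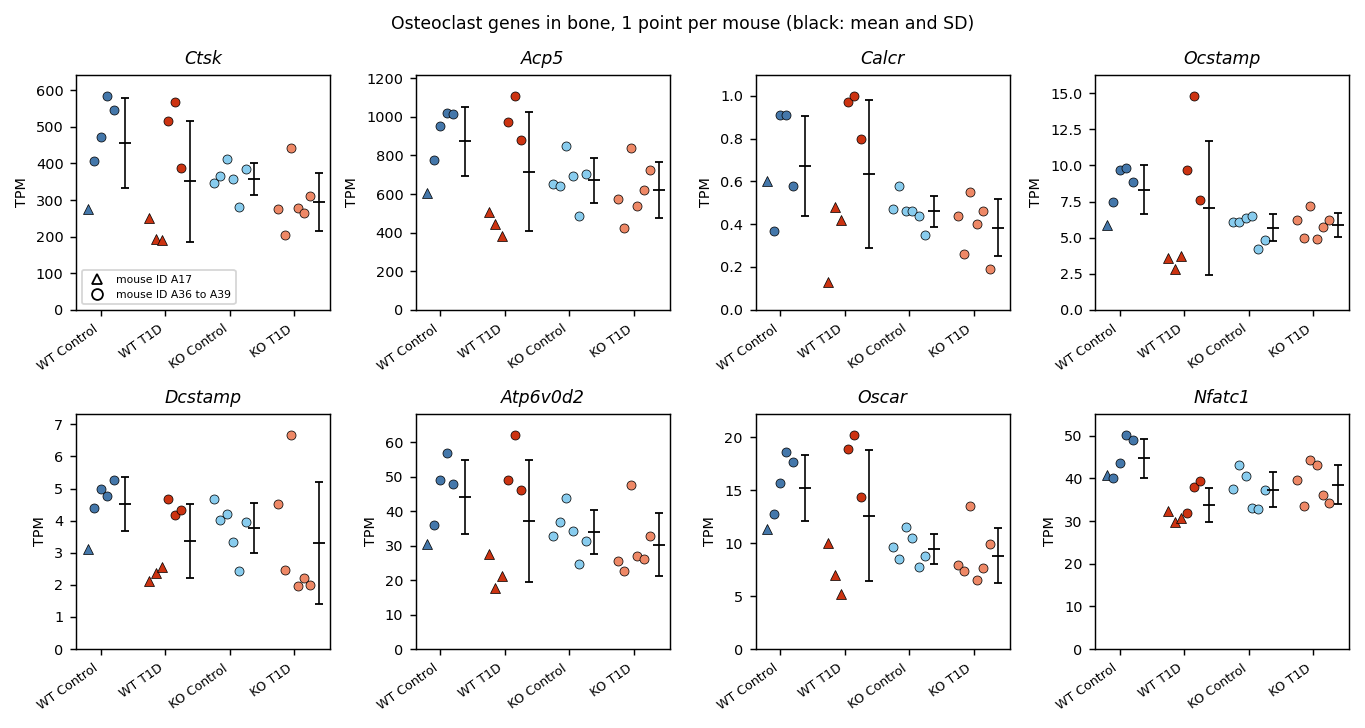
TPM of the 8 osteoclast genes in each mouse of the 4 groups, with the mean and SD of each group in black. Triangles are mice with A17 IDs and circles mice with A36 to A39 IDs, and for 7 genes the 3 A17 triangles of WT T1D lie below the 3 circles of that group, the exception being Nfatc1.

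T1D in WT mice was the comparison that asked how early diabetes alters these genes. None of the 8 changed at an adjusted p under 0.05 (edgeR's quasi-likelihood test with Benjamini-Hochberg adjustment over all tested genes), where 2.6% of all tested genes did. Their log2 fold changes ran from -0.11 to 0.26 with a median of 0.06, 5 above and 3 below 0, beside a median of -0.01 over all genes, and their adjusted p ranged from 0.570 to 0.966. The small average hid a wide spread. WT T1D held both the lowest and the highest values of all 23 mice in CPM for Calcr, Ocstamp, Atp6v0d2, and Oscar. How often this holds among all tested genes was not computed.

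Nfatc1 lies on chromosome 18 from 80606205 to 80713071. For this gene the WT Control mice had 119, 127, 137.7, 149, and 157 CPM. WT T1D mice with A17 IDs had 107, 109.8, and 116 CPM, and those with A36 to A39 IDs had 127, 142, and 164 CPM. The A17 mice were lowest and the groups overlapped through the others. The log2 fold change in CPM was -0.11 ± 0.11 (SE, edgeR, adjusted p = 0.570). On the TPM scale all 6 WT T1D mice (29.7 to 39.3 TPM) lay below every WT Control mouse (40.1 to 50.1 TPM). The share of all genes arranged in this way was not computed. The difference in log2 (TPM + 1) was -0.40, with an exact two-sided permutation p of 0.00433 over 462 splits. After adjustment over the 16 such tests, p was 0.0693. On the TPM scale the median of all genes stood at -0.24 (log2) in this comparison, against -0.01 on the CPM scale. With limma on the same values Nfatc1 passed (adjusted p = 0.00991), as did 35.7% of all genes.

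Oscar, the costimulatory receptor, was measured at 14.8 and 14.8 CPM in WT Control mice A1757 and A3767, and at 17.7, 22.7, and 20.9 CPM in A3903, A3904, and A3907. In WT T1D it was at 13.3, 9.85, and 7.69 CPM in the A17 mice and at 32.3, 33.3, and 18.0 CPM in the others. The A17 mice lay below every WT Control mouse and A3905 and A3906 above every one, so the group straddled its control. Its log2 fold change was 0.07 ± 0.30 (SE, edgeR, adjusted p = 0.921).

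The fusion genes showed the same arrangement. Ocstamp was at 8.27, 9.21, 11.7, 12.8, and 11.2 CPM in WT Control. It was at 5.07, 4.30, and 5.85 CPM in the A17 mice of WT T1D and at 17.7, 26.2, and 10.3 CPM in A3905, A3906, and A3909. Again the A17 mice were below all controls and A3905 and A3906 above all of them, with A3909 inside the control range. The log2 fold change was 0.12 ± 0.34 (SE, edgeR, adjusted p = 0.875). Dcstamp ranged from 4.44 to 6.23 CPM (median 5.99) in WT Control and from 2.87 to 8.55 CPM (median 4.84) in WT T1D. Its 3 A17 mice, at 2.87 to 3.96 CPM, were again below all controls, and the log2 fold change was -0.09 ± 0.30 (SE, edgeR, adjusted p = 0.894).

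Among the genes of the resorbing cell, Atp6v0d2 was at 56.6, 58.2, 77.0, 96.9, and 79.1 CPM in WT Control. In WT T1D it was at 51.0, 34.6, and 43.6 CPM in the A17 mice and at 117, 142, and 81.2 CPM in the others. Groups overlapped through A3909 alone, since the other 5 WT T1D mice fell outside the control range on one side or the other. The log2 fold change was 0.09 ± 0.30 (SE, edgeR, adjusted p = 0.896). Acp5 was at 588, 658, 787, 912, and 885 CPM in WT Control. The WT T1D values of Acp5 were 495, 464, and 419 CPM in the A17 mice and 1223, 1345, and 814 CPM in the others. Here too 3 mice were below and 2 above all controls, and the log2 fold change was 0.05 ± 0.26 (SE, edgeR, adjusted p = 0.937).

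Ctsk was at 311, 403, 456, 612, and 556 CPM in WT Control, the lowest being the A17 mouse. In WT T1D the A17 mice had 286, 233, and 241 CPM and the others 759.7, 808, and 419 CPM. The position of each mouse against the controls was as for Acp5, and the log2 fold change was -0.03 ± 0.29 (SE, edgeR, adjusted p = 0.966). Calcr ranged from 0.823 to 2.14 CPM (median 1.53) in WT Control and from 0.338 to 3.23 CPM (median 1.63) in WT T1D, with 1 mouse below and 2 above all controls. The log2 fold change of Calcr was 0.26 ± 0.39 (SE, edgeR, adjusted p = 0.746).

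The position of a WT T1D mouse followed its ID. All 3 A17 mice lay below all 3 A36 to A39 mice for 8 of 8 genes in CPM and for 7 of 8 in TPM, where 7.66% and 4.76% of all tested genes were arranged in this way. The ratio of the A36 to A39 mean to the A17 mean ran from 1.30 for Nfatc1 to 3.56 for Ocstamp. In an edgeR fit with a separate mean for each group and ID series, made after these values had been seen, 5 of 8 genes were lower in the A17 mice at an adjusted p under 0.05, against 1.12% of all tested genes. These were Ocstamp (log2 fold change -1.83 ± 0.25, SE, adjusted p = 0.000750), Oscar (-1.44 ± 0.26, 0.00505), Atp6v0d2 (-1.40 ± 0.26, 0.00781), Ctsk (-1.38 ± 0.23, 0.00441), and Acp5 (-1.30 ± 0.21, 0.00334). The values for Calcr (-1.54 ± 0.46, adjusted p = 0.0677), Dcstamp (-1.10 ± 0.35, adjusted p = 0.0921), and Nfatc1 (-0.38 ± 0.13, adjusted p = 0.0992) pointed the same way without passing. The median of the 8 was -1.39, beside 0.00 over all genes.

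Summed markers of B cells, osteocytes, and adipocytes differed between the ID series as well. The 6 B cell markers summed to 781 to 854 CPM in the A17 mice of WT T1D and to 163 to 446 CPM in the A36 to A39 mice, and to 969 CPM in the A17 mouse and 345 to 511 CPM in the others of WT Control. The 5 osteocyte markers summed to 223 to 413 CPM in the A17 mice of WT T1D and to 434 to 504 CPM in the A36 to A39 mice, and to 313 CPM and 503 to 567.5 CPM in WT Control. The 4 tested adipocyte markers summed to 189 to 212 CPM in the A17 mice of WT T1D and to 213 to 451 CPM in the A36 to A39 mice. In WT Control they summed to 116 CPM and 133 to 183 CPM. None of these sums overlapped between the ID series within either group, with A3909 on the side of its series. WT Control held 1 A17 mouse, however. Sums of neutrophil markers and of monocyte and macrophage markers parted in WT T1D but not in WT Control. The mean log2 (CPM + 0.5) of the same osteocyte markers did overlap in WT T1D. It was 5.345 to 6.10 in A17 mice and 5.47 to 6.39 in the others. That of the adipocyte markers overlapped too, at 4.74 to 5.03 in A17 mice and 4.97 to 5.98 in the others. How often sums of genes outside the marker lists part in this way was not computed. Among the single markers, Cd79a of B cells was higher in A17 mice of WT T1D (1.69, edgeR, adjusted p = 0.00441). Of the 5 osteocyte markers, Mepe (-1.499, adjusted p = 0.00239) and Sost (-1.04, adjusted p = 0.0140) were lower. Dmp1 (-0.27, adjusted p = 0.525) did not pass. Nor did Phex (0.82, adjusted p = 0.333) and Pdpn (0.92, adjusted p = 0.288), which pointed the other way. Against A3909 alone the values were 0.98 for Cd79a, -0.96 for Mepe, and -1.20 for Sost. The part of these markers in the osteoclast values was not tested.

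A3905 and A3906 carried much of this distance. Without them, 1 A36 to A39 mouse of WT T1D remained, A3909. Its ratio to the A17 mean ran from 1.15 for Nfatc1 to 2.05 for Calcr. In the edgeR fit that took A3909 to vary like the other groups, the median log2 fold change of the A17 mice against A3909 was -0.81, from -1.02 to -0.19, and 0 of 8 genes passed (adjusted p = 0.998 for each), as for 0% of all genes. At an unadjusted p under 0.05 there were 5 of 8 genes and 3.51% of all genes. The osteoblast score of A3909 (10.7, mean log2 CPM) lay within those of the other 20 mice (10.3 to 11.2). Whether the low osteoblast marker sums of A3905 and A3906 have a part in their high osteoclast values was not tested.

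**Figure D2:**
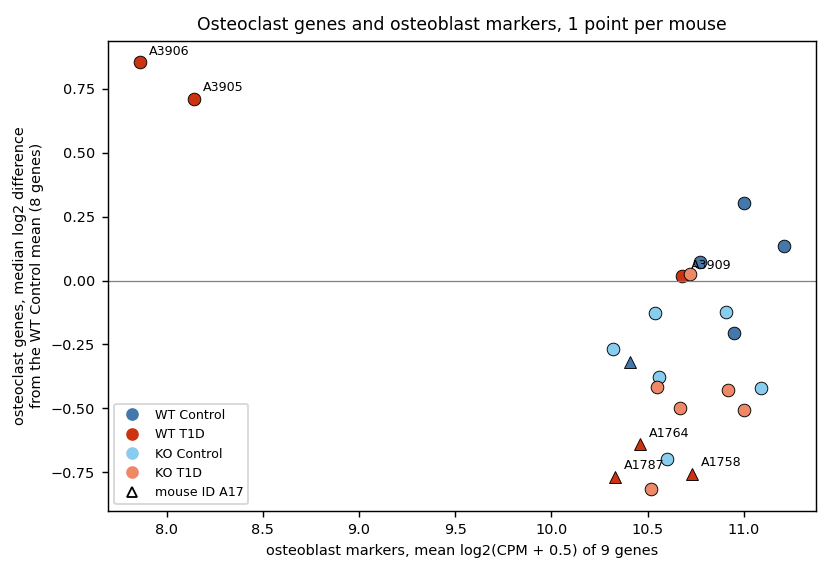
Median log2 difference of the 8 osteoclast genes from their WT Control mean, in CPM, against the mean log2 (CPM + 0.5) of 9 osteoblast markers, 1 point per mouse, with the WT T1D mice named. A3905 and A3906 sit at upper left (0.71 and 0.85 above the control mean, osteoblast scores 8.14 and 7.86), and the 3 A17 mice of WT T1D sit at 0.64 to 0.77 below it with osteoblast scores of 10.3 to 10.7.

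Recomputed within the ID series, the change with T1D in WT mice turned. Among A36 to A39 mice (4 Control and 3 T1D) all 8 genes had higher fitted values with T1D, where 52% of all genes were lower. The median log2 fold change was 0.51, and 1 of 8 passed, against 16.4% of all genes. This gene was Ocstamp (0.69 ± 0.22, SE, edgeR, adjusted p = 0.0357). Among A17 mice (1 Control and 3 T1D) all 8 had lower values, as had 47.3% of all genes, with a median of -0.40, and 0 of 8 passed (adjusted p = 1.00 for each), as for 0% of all genes. The difference between these 2 changes had a median of -0.89 and did not pass for any of the 8 (lowest adjusted p = 0.361), nor for any of the 14364 genes. At an unadjusted p under 0.05 it held 4 of the 8 and 12.7% of all genes. With a single A17 control, ID series and T1D are only partly separable in WT mice.

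When A3905 and A3906 were left out and the ID series kept together, the median change with T1D in WT mice was -0.50 and 0 of 8 genes passed, as for 0% of all genes. A3909 alone differed from the 4 A36 to A39 WT Control mice by a median of -0.07, from -0.28 for Ctsk to 0.31 for Calcr. The direction of the WT T1D median also turned without A3906 alone (-0.17), A3905 alone (-0.12), or the A17 control A1757 alone (-0.013).

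**Figure D3:**
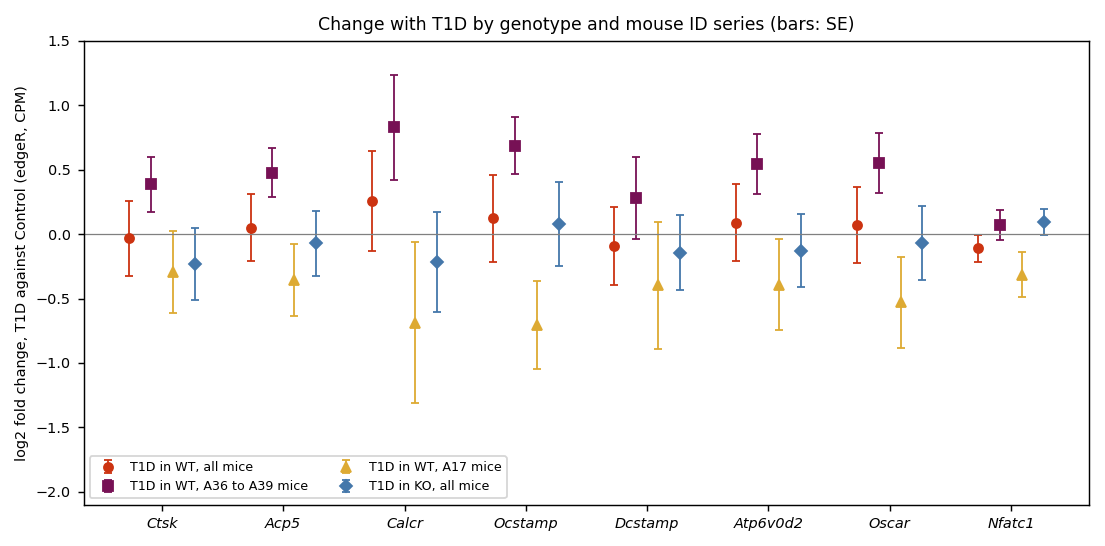
Log2 fold change with T1D for each osteoclast gene, with SE bars from edgeR, in all WT mice, in WT mice with A36 to A39 IDs, in WT mice with A17 IDs, and in all mice labelled KO. The squares (A36 to A39) are above 0 for all 8 genes, the triangles (A17) below 0 for all 8, and the circles (all WT mice) between -0.11 and 0.26.

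In mice labelled KO, all of which had A36 to A39 IDs, no change with T1D was detected. None of the 8 passed, and 0% of all genes did, with 435 of 14364 (3.03%) at an unadjusted p under 0.05 in edgeR, 0 of the 8 among them, and 436 in DESeq2, which called 0 as well. The 8 log2 fold changes ran from -0.23 to 0.09 with a median of -0.10, 2 above and 6 below 0. Ctsk had a lowest, median, and highest value of 311, 376, and 433 CPM in KO Control and of 225, 309.8, and 469.9 CPM in KO T1D. The KO T1D range reached beyond the controls at both ends, and the log2 fold change was -0.23 ± 0.28 (SE, edgeR, adjusted p = 1.00). For Acp5 the corresponding values were 463, 585, and 747 CPM in KO Control and 404, 564, and 763 CPM in KO T1D, with the same overlap and a log2 fold change of -0.07 ± 0.25 (SE, edgeR, adjusted p = 1.00).

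Ocstamp had 5.84, 7.74, and 9.83 CPM in KO Control and 6.82, 7.97, and 9.57 CPM in KO T1D, so that the T1D mice lay inside the control range. Its log2 fold change was 0.08 ± 0.33 (SE, edgeR, adjusted p = 1.00). Nfatc1 had 108, 116, and 129.7 CPM in KO Control and 106, 123, and 147 CPM in KO T1D, with 2 KO T1D mice above all controls. The log2 fold change of Nfatc1 was 0.09 ± 0.10 (SE, edgeR, adjusted p = 1.00). Dcstamp was uneven in KO T1D. Its values were 8.57 CPM in A3683 and 6.14 CPM in A3681, both above all KO Control mice (3.14 to 5.72 CPM), whereas 4 of the 6 lay below all of them at 2.45 to 3.11 CPM. The log2 fold change of -0.14 ± 0.29 (SE, edgeR, adjusted p = 1.00) lay between these sets of mice. Mouse A3683 was the highest of KO T1D in 7 of the 8 genes, the exception being Nfatc1.

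The interaction term asked whether the change with T1D differed by genotype. It did not pass for any of the 8 genes, nor for any of the 14364 tested (0%). With edgeR 1433 genes had an unadjusted p under 0.05 and with DESeq2 1495, and 0 of the 8 were among the former (9.98% of all genes). The interaction ran from -0.48 to 0.20 on the log2 scale, 1 above and 7 below 0, with SEs of 0.147 to 0.550 and a median of -0.13. In A36 to A39 mice alone the median was -0.63, and without A3905 and A3906 it was 0.39, so that the sign followed the WT T1D mice included.

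Genotype was also compared within Control and within T1D mice. These comparisons share mice with those for T1D and are not separate evidence. In Control mice all 8 genes had lower values in mice labelled KO than in WT mice, where 50.1% of all genes did, and 0 of 8 passed, beside 0.0278% of all genes. The median was -0.33. The IDs of KO Control mice began with A36 or A37 and those of WT Control mice with A17, A37, or A39. Only A3766 (KO) and A3767 (WT) shared a prefix. Genotype and ID prefix are therefore only partly separable among Control mice. Oscar had the largest difference, with 9.97, 10.8, and 14.8 CPM (lowest, median, highest) in KO Control against 14.8, 17.7, and 22.7 CPM in WT Control. Of the 6 KO Control mice, 5 lay below all WT Control mice, and the log2 fold change was -0.64 ± 0.30 (SE, edgeR, adjusted p = 0.999, unadjusted p = 0.0446). The same number of mice lay below all WT Control mice for Ocstamp, with a log2 fold change of -0.50 ± 0.34 (SE, edgeR, adjusted p = 0.999). Nfatc1 was -0.23 ± 0.11 (SE, edgeR, adjusted p = 0.999, unadjusted p = 0.0382), with 3 of 6 KO Control mice below all WT Control mice. These were 2 of 8 genes at an unadjusted p under 0.05, against 4.62% of all genes.

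In T1D mice all 8 genes again had lower fitted values in those labelled KO, beside 48.7% of all genes, with a median of -0.52. None of the 8 passed, and 0.0348% of all genes did. Calcr had 0.442, 1.08, and 1.33 CPM (lowest, median, highest) in KO T1D against 0.338, 1.63, and 3.23 CPM in WT T1D, a log2 fold change of -0.96 ± 0.38 (SE, edgeR, adjusted p = 0.224). Oscar had 8.76, 9.97, and 16.8 CPM in KO T1D against 7.69, 15.6, and 33.3 CPM in WT T1D, a log2 fold change of -0.77 ± 0.29 (SE, edgeR, adjusted p = 0.207). These 2 of 8 genes had an unadjusted p under 0.05, as did 16.7% of all genes. For both genes the WT T1D range enclosed that of KO T1D.

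This comparison depended on the WT T1D mice that entered it. The IDs of KO T1D mice all began with A36 and those of WT T1D mice with A17 or A39. Genotype and ID prefix therefore cannot be told apart among T1D mice. Within A36 to A39 mice 6 of 8 genes were lower in KO T1D at an adjusted p under 0.05 in edgeR, against 5.08% of all genes. Their log2 fold changes were -1.05 for Ctsk, -0.97 for Acp5, -1.55 for Calcr, -1.19 for Ocstamp, -1.10 for Atp6v0d2, and -1.33 for Oscar, with adjusted p from 0.00179 to 0.0119. With the ID series as a covariate, which parts only A17 from all other IDs, the same 6 genes passed, against 2.19% of all genes. When A3905 and A3906 were left out of all mice, the median of the 8 was 0.10 and 0 of 8 passed, against 0.0278% of all genes. Against A3909 alone, KO T1D mice had lower fitted values for all 8 genes, with a median of -0.44, with adjusted p = 1.00 for each, where 0.0139% of all genes passed. KO T1D mice below A3909 numbered 3 of 6 for Nfatc1, 4 for Dcstamp, and 5 each for Ctsk and Atp6v0d2. They numbered 6 for Acp5, Calcr, Ocstamp, and Oscar, and the share of all genes arranged in this way was not computed.

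The 8 genes varied together from mouse to mouse. Pearson correlations of log2 (CPM + 0.5) over the 23 mice, which share depth, normalization, and tissue composition, ranged over the 28 pairs from 0.607 for Dcstamp with Nfatc1 to 0.965 for Ctsk with Acp5, with a median of 0.755. Spearman correlations ranged from 0.595 to 0.943, and with the group means removed the Pearson range was 0.611 to 0.972. Over the 21 mice without A3905 and A3906, Pearson correlations ranged from 0.439 to 0.937 with a median of 0.665, Spearman correlations from 0.469 to 0.925, and Pearson correlations with the group means removed from 0.227 to 0.934. Acp5 and Atp6v0d2 tracked the other 7 most closely (median r of 0.920 each), and Calcr and Nfatc1 least (0.713 each). Without these mice the medians were 0.853 for Acp5, 0.852 for Atp6v0d2, 0.505 for Calcr, and 0.618 for Nfatc1. These values describe the mice and were not tested.

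Outside the 8, the genes whose pattern over the 23 mice was most like the mean z score of the members were Slc37a2 (Pearson r = 0.961), Atp6v1b2 (0.940), Gpr137b (0.937), C77080 (0.934), Slc9b2 (0.929), Atp6v1a (0.928), Mmp9 (0.918), Cyp4v3 (0.913), Mmp13 (0.895), and Tgfbr1 (0.895). Without A3905 and A3906 the 10 values were 0.806 to 0.930, and 8 of these genes were still among the 10 most alike, all but Mmp13 and Tgfbr1. Slc37a2 encodes a sugar phosphate transporter, Slc9b2 a sodium-proton exchanger, and Atp6v1a and Atp6v1b2 proton pump subunits. Mmp9 and Mmp13 encode matrix metalloproteinases, of which MMP-9 is abundant in osteoclasts and MMP-13 is made chiefly by osteoblasts and hypertrophic chondrocytes. Of the marker lists for other cell types, that for B cells had the strongest relation with the members (r = -0.749, Spearman rho = -0.576). By size of r, osteoblasts (r = -0.580, rho = 0.0504), adipocytes (r = 0.570, rho = 0.271), and neutrophils (r = 0.544, rho = 0.255) followed. Over the 21 mice without A3905 and A3906, r was -0.417 for B cells and 0.410 for osteoblasts. For adipocytes and neutrophils it was not computed without these mice.

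**Figure D4:**
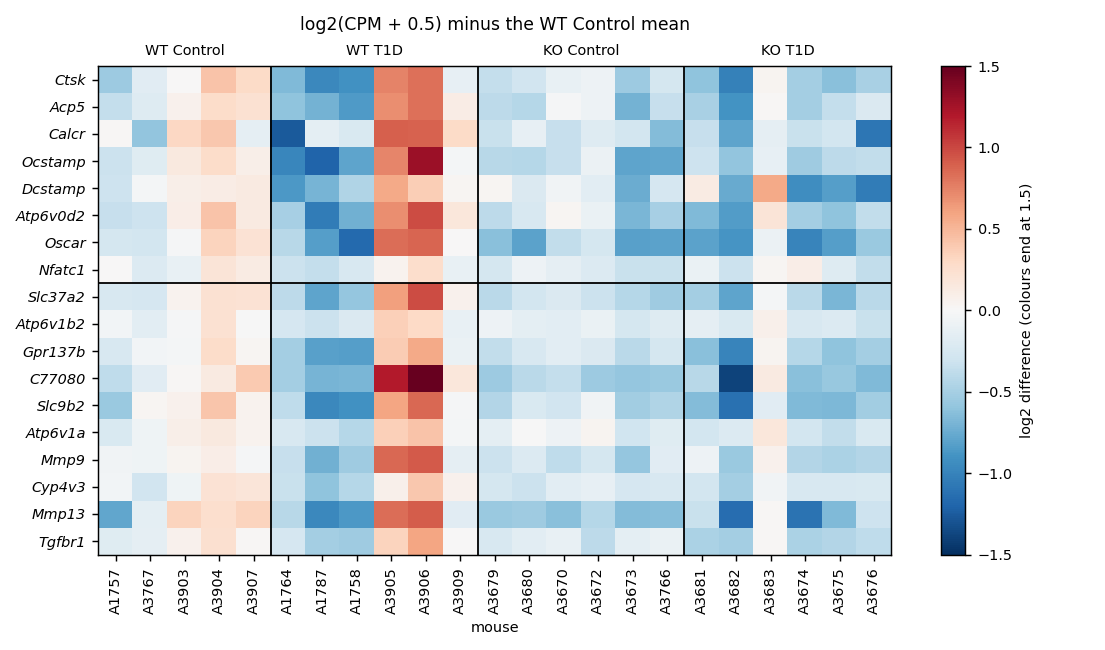
Log2 (CPM + 0.5) minus the WT Control mean, for the 8 osteoclast genes (above the line) and the 10 genes most like them (below it), 1 column per mouse, with red above and blue below the control mean. The columns of A3905 and A3906 are red and those of A1764, A1787, and A1758 blue for nearly all genes, within the same group.

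Upstream of the osteoclast, the ligands and receptors that drive its formation were measured as the RANK ligand axis, and 0 of its 6 genes passed with T1D in WT mice. Tnfsf11, which encodes RANK ligand, was at 3.49 CPM in WT Control and 4.56 CPM in WT T1D, a log2 fold change of 0.39 ± 0.30 (SE, edgeR, adjusted p = 0.470). Tnfrsf11b, which encodes its decoy receptor osteoprotegerin, was at 10.3 CPM and 7.33 CPM, -0.49 ± 0.24 (adjusted p = 0.237). Within A36 to A39 mice Tnfrsf11b was lower with T1D (-0.77, adjusted p = 0.0413), while A3909 alone differed from the controls by -0.31 (adjusted p = 1.00). The receptor gene Tnfrsf11a was at -0.28 ± 0.19 (adjusted p = 0.401), Csf1 at -0.16 ± 0.11 (adjusted p = 0.422), and its receptor gene Csf1r at -0.14 ± 0.08 (adjusted p = 0.355). In labelled KO mice none of the 6 passed.

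Downstream and beside it, pathway genes were grouped into 9 further lists. Of the 84 genes tested in them, 1 rose and 1 fell with T1D in WT mice at an adjusted p under 0.05 (2.38%), a share near the 2.6% of all tested genes. Car2, which encodes the carbonic anhydrase that supplies protons for acid secretion and is also abundant in red cell precursors, rose from 909 to 1407 CPM (log2 fold change 0.63 ± 0.14, SE, edgeR, adjusted p = 0.0331), while summed erythroid markers were at 98590 to 144300 CPM in WT Control and at 127300 to 239300 CPM in WT T1D. The fit with erythroid markers as a covariate was not examined for Car2, and the part of erythroid RNA in this result was not tested. Cd109, a cell surface protein gene, fell from 85.8 to 53.3 CPM (-0.69 ± 0.17, adjusted p = 0.0434). Without A3905 and A3906 neither passed, with values of 0.44 for Car2 (adjusted p = 0.283) and -0.63 for Cd109 (adjusted p = 0.293). No gene of the lists passed with T1D in labelled KO mice, for the interaction, or between genotypes.

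In the edgeR fit with ID series, 26 of the 90 genes of all 10 lists passed between the A17 and the A36 to A39 mice of WT T1D (28.9%), 5 higher and 21 lower in A17 mice. Over all tested genes 2.92% passed, 1.8% higher and 1.12% lower, and 49.6% had lower values. In the same fit 19 of the 90 passed with T1D in A36 to A39 WT mice (21.1%), 10 higher and 9 lower, against 16.4% of all tested genes. Both comparisons share the 3 A36 to A39 mice of WT T1D, and the difference between them was not tested. Of the 17 other proton pump subunits, 16 had lower values in the A17 mice than in the A36 to A39 mice and 5 passed, with a median of -0.31. Tcirg1, the subunit gene whose loss causes osteopetrosis, was at -0.63 (adjusted p = 0.0105, chosen after its value was seen), and Atp6v1e1 at -0.60 (adjusted p = 0.0154). All 9 genes of acid secretion and the ruffled border were lower, 3 of which passed, and with a median of -0.31. The 3 were Slc9b2 (-1.29), Snx10 (-0.92), and Clcn7 (-0.52), the last of them a chloride-proton exchanger gene, with adjusted p of 0.00441 to 0.0106. Of 8 other osteoclast-enriched genes, 7 were lower and 4 passed, with a median of -0.62, among them Slc37a2 (-1.20, adjusted p = 0.00378) and Siglec15 (-1.19, adjusted p = 0.0125), which encodes a lectin of osteoclasts. Mmp9 was the gene of 6 for matrix degradation that passed (-1.15, adjusted p = 0.00441).

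Other lists were mixed. In RANK signal transduction 1 of 14 genes passed in each direction, Fos lower (-1.15, adjusted p = 0.0180) and Nfkb2 higher (0.50, adjusted p = 0.0363), with a median of 0.09. In ITAM costimulation, which includes genes used by B cells and neutrophils, 2 of 9 passed in each direction, and Blnk, a B cell adaptor gene, was higher in A17 mice (1.47, adjusted p = 0.0105). Adhesion genes had a median of 0.22, with 2 of 9 higher and 1 lower. Itgb3 (0.63, adjusted p = 0.0137) and Tln1 (0.36, adjusted p = 0.0421) were higher, and Itgav (-0.66, adjusted p = 0.0387) was lower. Of the transcription activators 2 of 8 were lower, Prdm1 (-0.82, adjusted p = 0.0483) and Jdp2 (-0.60, adjusted p = 0.0272), and of 4 repressors 1 was lower, Id2 (-0.55, adjusted p = 0.0193). In the RANK ligand axis Csf1 was lower (-0.48, adjusted p = 0.0245) and Tnfsf11 did not pass (-0.44, adjusted p = 0.532). Without A3905 and A3906, with A3909 alone against the A17 mice, no gene of the 10 lists passed, and the medians were -0.12 for the proton pump (13 of 17 lower), -0.13 for acid secretion (7 of 9 lower), -0.52 for other osteoclast-enriched genes (8 of 8 lower), and -0.31 for the RANK ligand axis (5 of 6 lower).

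**Figure D5:**
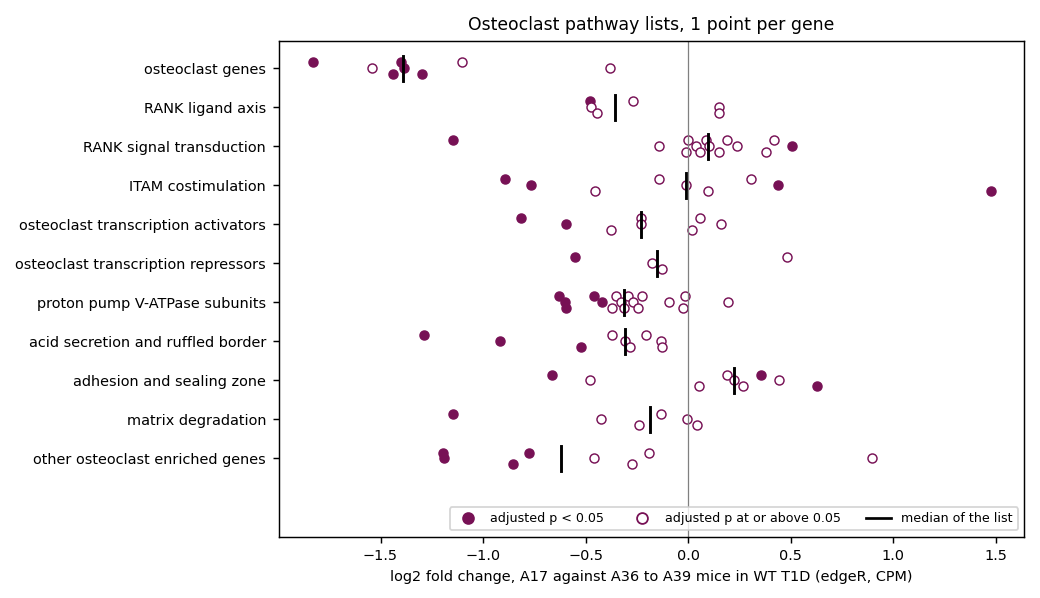
Log2 fold change of A17 against A36 to A39 mice within WT T1D for each gene of the osteoclast gene list and 10 pathway lists, filled where the adjusted p was under 0.05, with the list median as a black bar. The median of the 8 osteoclast genes lies furthest left (-1.39), although Nfatc1 (-0.38) lies to the right of many pathway genes, and the medians of the pathway lists run from -0.62 to 0.22.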

How the data were processed

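RNA-Seq values of marrow-depleted bone from 23 mice, 1 library each, were grouped by library label. Per the study's methods, polyA RNA was sequenced as paired-end 100 bp reads on DNBSEQ, cleaned in SOAPnuke, and mapped by HISAT and Bowtie2 onto GRCm38.p6. The authors deposited expected counts per gene from RSEM, as whole numbers without normalization, together with TPM values made by the sequencing provider. Total counts per mouse were 16938101 to 20135592, and errors include differences between mice. Mice within a group differed by more than sampling noise in all 55 pairs (chi-square over genes 11.3 to 193 per gene).

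Genes that reached 10 counts in 5 or more mice entered the tests in R 4.3.3 with edgeR 4.0.16 (TMM, quasi-likelihood test, robust), with a mean for each of the 4 groups and Benjamini-Hochberg adjustment over 14364 genes at a threshold of 0.05. limma 3.58.1 on log2 (TPM + 1) or log2 (TPM + 0.1), DESeq2 1.42.0, other normalization and filters, erythroid markers as a covariate, and leaving out mice were alternatives. Fits with the ID series as a term, without robust estimation, or with A3909 alone for its series were added after the data were seen. Exact two-sided permutation tests over mice used log2 (TPM + 1). The edgeR step was tested on simulated data. Python 3.11.15 with pandas 2.3.3, numpy 2.4.6, scipy 1.17.1, and matplotlib 3.10.9 did the rest. In a fit with 1 mouse in a group, that mouse is assumed to vary like the others.

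The 8 genes, the pathway lists, and the marker lists were chosen with earlier results of these data known. Of the pathway lists, genes are named if they passed in a comparison of the 4 groups, were among the 2 largest changes of their list with T1D in WT mice, or encode the main ligands and receptors. Largest changes not given above were Relb (-0.39), Sirpb1a (0.26), Mitf (-0.43), Irf8 (-0.13), Atp6v0a2 (-0.21), Ostm1 (0.20), Src (-0.21), Cttn (-0.19), Mmp14 (-0.52), and Sh3pxd2a (-0.73), none of which passed. In A17 against A36 to A39 mice of WT T1D they were, in this order, 0.38, -0.89, 0.16, 0.48, 0.19, -0.37, 0.44, 0.27, 0.045, and 0.90. There Sirpb1a passed (edgeR, adjusted p = 0.0432). The 10 genes most like the members over all mice are named, and the same ranking with group means removed is not reported here. Genes named for the ID series alone were chosen after their values were seen. Fosl1, Ahsp, Trac, and Lep were not tested. Protein sequences and the promoters of Ocstamp, Dcstamp, Atp6v0d2, and Nfatc1 were not used here.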

Additional observations from a re-analysis of the deposited data

Results flagged for a closer look

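In KO T1D, mouse A3683 stood apart from the other 5 in Atp6v0d2, at 82.7 CPM, where its gap to the next mouse was 0.636 of the whole range of the group. This was 1 of 64 sets of values examined (8 genes, 4 groups, CPM and TPM), and chance alone sets such a mark in about 1 in 20 groups.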

How the results depend on the processing

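No paired analysis was possible because the labels number mice by IDs that no groups share. With T1D in WT mice, 0 of 8 genes passed in edgeR with all mice. The count was 1 with limma on log2 (TPM + 1), 1 with log2 (TPM + 0.1), and 1 in A36 to A39 mice alone, and the median of 0.06 became -0.50 without A3905 and A3906. Single genes whose direction turned in this comparison were, with log2 (TPM + 1), Acp5 (-0.38), Calcr (-0.053), Ocstamp (-0.39), Atp6v0d2 (-0.34), and Oscar (-0.37), with log2 (TPM + 0.1) the same genes (-0.38, -0.20, -0.47, -0.35, and -0.41), with erythroid markers as a covariate the same genes (-0.34, -0.62, -0.75, -0.36, and -0.45), and without A3905 and A3906 the same genes (-0.49, -0.38, -0.74, -0.49, and -0.58). In A36 to A39 mice alone Ctsk (0.40), Dcstamp (0.29), and Nfatc1 (0.081) turned, and with the ID series as a covariate Ctsk (0.17) and Dcstamp (0.075).

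For KO against WT in T1D mice, 0 of 8 became 6 in A36 to A39 mice alone and 6 with the ID series as a covariate, and the median of -0.52 became -1.07 in the former and 0.10 without A3905 and A3906. Nfatc1 turned with log2 (TPM + 1) (0.19), log2 (TPM + 0.1) (0.19), erythroid markers (0.10), and without A3905 and A3906 (0.12), Ocstamp with erythroid markers (0.11), and Ctsk (0.13), Acp5 (0.082), Ocstamp (0.32), Dcstamp (0.12), and Atp6v0d2 (0.026) without these mice. The interaction median of -0.13 became -0.63 in A36 to A39 mice alone and 0.39 without A3905 and A3906. The cause of these turns was not tested.

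Leaving out each mouse in turn, 0 of 8 passed in every comparison of the 4 groups. The median of the 8 ranged from -0.17 to 0.21 with T1D in WT, below 0 without A3905 (-0.12), A3906 (-0.17), or A1757 (-0.013) and highest without A1758. It ranged from -0.31 (without A3683) to 0.064 (without A3906, and 0.043 without A3905) for the interaction, from -0.69 (without A1787) to -0.26 (without A3906) for KO against WT in T1D, from -0.26 (without A3683) to -0.035 (without A3670) with T1D in KO, and from -0.42 to -0.24 for KO against WT in Control. Ranges that crossed 0 with T1D in WT mice were -0.16 to 0.19 for Acp5, -0.26 to 0.11 for Ctsk, -0.27 to 0.034 for Dcstamp, -0.29 to 0.30 for Ocstamp, -0.16 to 0.25 for Atp6v0d2, and -0.15 to 0.25 for Oscar. Others were -0.22 to 0.0058 for Oscar and -0.17 to 0.012 for Acp5 with T1D in KO, -0.092 to 0.047 for Nfatc1 between genotypes in T1D, and, in log2 (TPM + 1), -0.12 to 0.048 for Calcr in WT, -0.026 to 0.084 for Ocstamp in KO, and -0.0022 to 0.082 for Nfatc1 in KO. With DESeq2, its size factors in edgeR, no filter on low counts, no robust estimation, erythroid markers, or the compared groups alone (not run for the interaction, which needs all 4), 0 of 8 passed in each comparison. At 6 to 57 counts per mouse, depth limits Calcr most.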
